A study of Mus musculus with 8 samples.

Results

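The 5 transcription factor genes described here, Sim1, Nkx2-2, Nkx2-9, Foxa2 and Foxa1, mark the most ventral cells of the developing spinal cord. They were taken by symbol from the 38355 genes counted, and all 5 were found. Total RNA of mouse embryos (strain C57Bl6, age E11.5, in days of gestation) was sequenced and reads were counted per gene. The tissue was thoracic dorsal root ganglia dissected together with the spinal cord they attach to. A group of 4 libraries came from Prdm12-/- embryos (KO), which lack the zinc-finger transcription factor Prdm12, and a group of 4 from wild-type embryos (WT). The labels name no conditional allele and do not state which part of Prdm12 was removed, or whether a library is 1 embryo or a pool. Each p-value therefore measures the spread between these libraries, which may be partly technical. Levels are given as CPM, read counts divided by the scaled total of their library. Prdm12 itself lay between 0.962 and 1.55 CPM in KO and between 22.2 and 39.6 CPM in WT. Library totals ran from 23088908 to 27567399 counts in KO and from 25490087 to 67782435 in WT, where WT replicate 1 held 2.55 times the median of the other 7.

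The floor plate is a strip of glia-like cells at the ventral midline of the neural tube. Together with the notochord beneath it, it secretes Sonic hedgehog (Shh), and the graded signal sets up successive progenitor domains. The domain next to the floor plate is called p3. Its cells use Nkx2-2 and Nkx2-9, paired NK-class homeodomain factors, and give rise to V3 interneurons, excitatory neurons that mark themselves with the basic helix-loop-helix PAS factor Sim1. Foxa2 and Foxa1 are forkhead factors of the floor plate, and Foxa2 is known to activate Shh there. Prdm12 is known from nociceptor precursors and, in the ventral cord, from p1 progenitors, which lie dorsal to p3 with the V2 and motor neuron domains between them.

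The bases just before the RefSeq starts of the 5 genes (build GRCm38.p6, 7 windows of 250 bases) were searched on both strands for 4 core motifs. These were TGTTTAC for forkhead factors, CACTTGA for NK2 factors, GACCACCCA for Gli factors and TACGTG for bHLH-PAS factors. TGTTTAC ends and TACGTG begins with the same 3 letters, so those matches could overlap, and in these windows none did. The 2 matches found are shown because each lies before a gene whose own protein family is named for that motif. The lines run 5′ to 3′ on the gene's strand, and capitals mark the match.
Nkx2-2, chr2:147186581-147186610, minus strand, NK2 core: ctgtcttcatcCACTTGActcccaagaccc
Foxa1, chr12:57546234-57546263, minus strand, forkhead core read on the opposite strand: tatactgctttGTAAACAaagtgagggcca
The NK2 core was present in 2.68% of 32851 such windows over all genes and the forkhead core in 3.17%. The Gli core was present in 0.225% of them and the bHLH-PAS core in 2.72%. A match describes letters in this window and is not evidence of binding.

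The KO and WT libraries were compared for each factor with edgeR's quasi-likelihood test, adjusted over all genes tested. None of the 5 factors was found to change. Of the 4 that passed the filter on low counts (Sim1, Nkx2-2, Foxa2 and Foxa1), 0 were called, against 48 of all 16068 genes tested (0.299%, with 0.056% higher and 0.243% lower). At an unadjusted p under 0.05 there were also 0 of the 4, against 6.35% of all genes. After adjustment DESeq2 and limma-voom also called 0 of them. KO and WT levels overlapped for all 5, whereas the groups did not overlap for 4.14% of the genes tested. In bulk tissue such as this, fewer cells of a type and less RNA per cell cannot be told apart.

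Sim1, the V3 neuron factor (ENSMUSG00000019913, mm10 chromosome 10, 50894754 to 50989152, plus strand), had 15.1, 13.5, 14.5 and 17.4 CPM in KO replicates 1 to 4. It had 14.1, 16.2, 14.8 and 15.04 CPM in WT replicates 1 to 4. The lowest and the highest value were both KO libraries, and the WT values lay inside that range. Mean levels were 15.1 ± 1.67 CPM in KO and 15.03 ± 0.902 CPM in WT (SD, n = 4 each). The log2 fold change was 0.01 (KO over WT, SE 0.09, edgeR adjusted p = 0.997). Its 95% interval ran from −0.18 to 0.20, that is from 0.886 to 1.15 times the WT level. This was the narrowest interval of the 4 tested factors, on 337 to 947 counts per library.

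Nkx2-2, the homeodomain factor that defines p3 progenitors (ENSMUSG00000027434, chromosome 2, 147177546 to 147194243, minus strand), had 5.06, 4.84, 4.72 and 4.81 CPM in KO replicates 1 to 4. The WT replicates 1 to 4 had 3.95, 5.24, 4.90 and 6.45 CPM. The KO libraries lay close together, inside the WT range, whose ends were WT replicates 1 and 4. The means were 4.86 ± 0.142 CPM in KO and 5.13 ± 1.03 CPM in WT (SD, n = 4 each). The log2 fold change was −0.07 (SE 0.14, edgeR adjusted p = 0.974, 95% interval −0.38 to 0.24). Without WT replicate 4 it was 0.06, still far from the threshold.

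Nkx2-2 shares its locus with annotated transcripts on the other strand. Nkx2-2os (ENSMUSG00000086509, plus strand, 147184083 to 147331681) overlaps its span by 10161 bp, and 6430503K07Rik overlaps it by 984 bp. Whether counting used strand is not given, so reads of these genes cannot be told apart with certainty. Nkx2-2os was low, with 0.939, 0.360, 0.450 and 0.787 CPM in KO replicates 1 to 4. WT replicates 1 to 4 had 0.178, 0.258, 0.353 and 0.423 CPM. KO replicates 1, 3 and 4 lay above every WT library and KO replicate 2 lay within the WT range. The log2 fold change was 1.17 (SE 0.38, unadjusted p = 0.0104) on 7 to 26 counts per library, and it did not pass (edgeR adjusted p = 0.560).

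Nkx2-9, the NK2-class partner of Nkx2-2 in p3 (ENSMUSG00000058669, chromosome 12, 56611389 to 56613284, minus strand), was close to the limit of counting. It had 2, 3, 3 and 7 counts in KO replicates 1 to 4 and 24, 1, 2 and 3 counts in WT replicates 1 to 4. In 6 of the 8 libraries it did not exceed 3 counts, so it was removed by the filter and not tested. Scaled to depth, the highest libraries were WT replicate 1 at 0.357 CPM and KO replicate 4 at 0.306 CPM, and the others lay between 0.0369 and 0.120 CPM. A fit with no filter gave a log2 fold change of −0.28 with a 95% interval from −1.58 to 1.01 (edgeR adjusted p = 0.972). A 2-fold difference in either direction was therefore not excluded, on the high side only narrowly. Over 5 hindbrain markers, read because Nkx2-9 and Nkx2-2 are also used there, the summed level was 27.6 to 31.5 CPM in KO and 25.6 to 37.7 CPM in WT, and none was at 0 in all libraries. Of the 3 of them tested, Egr2, which glia of the dissected ganglia also use, rose (log2 fold change 1.08, edgeR adjusted p = 0.00673). Lmx1b at −0.12 and Hoxb1 at −0.28 did not pass. Lmx1b averaged 19.1 CPM in KO and 20.6 CPM in WT and made up most of the summed level. The spinal cord list holds Lmx1b too, so the sum does not read hindbrain apart from spinal cord. The part of hindbrain tissue in the Nkx2-9 values was not tested.

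Foxa2, the forkhead factor of floor plate and notochord (ENSMUSG00000037025, chromosome 2, 148042877 to 148046969, minus strand), had 1.95, 2.64, 2.70 and 3.19 CPM in KO replicates 1 to 4. It had 3.77, 2.32, 3.802 and 2.99 CPM in WT replicates 1 to 4. WT replicates 1 and 3 lay above every KO library, KO replicate 1 lay below every WT library, and the rest were mixed. The means were 2.62 ± 0.510 CPM in KO and 3.22 ± 0.707 CPM in WT (SD, n = 4 each). The log2 fold change of −0.31 was the farthest from 0 among the 4 tested factors, and it did not pass (SE 0.19, unadjusted p = 0.127, edgeR adjusted p = 0.869). Its 95% interval, −0.73 to 0.10, holds both no change and a level of 0.602 times that of WT. The value was −0.44 with limma-voom, where the unadjusted p was 0.0358 (limma adjusted p = 0.511), and it lay between −0.44 and −0.19 whichever library was left out.

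Foxa1, the second forkhead factor of the floor plate (ENSMUSG00000035451, chromosome 12, 57540628 to 57546916, minus strand), had 5.20, 6.81, 7.09 and 6.30 CPM in KO replicates 1 to 4. It had 5.26, 8.12, 4.66 and 6.62 CPM in WT replicates 1 to 4. Both the highest and the lowest library were WT, and all KO values lay between them. The means were 6.35 ± 0.831 CPM in KO and 6.17 ± 1.54 CPM in WT (SD, n = 4 each), with a log2 fold change of 0.05 (SE 0.17, edgeR adjusted p = 0.986, 95% interval −0.32 to 0.42).

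**Figure D1:**
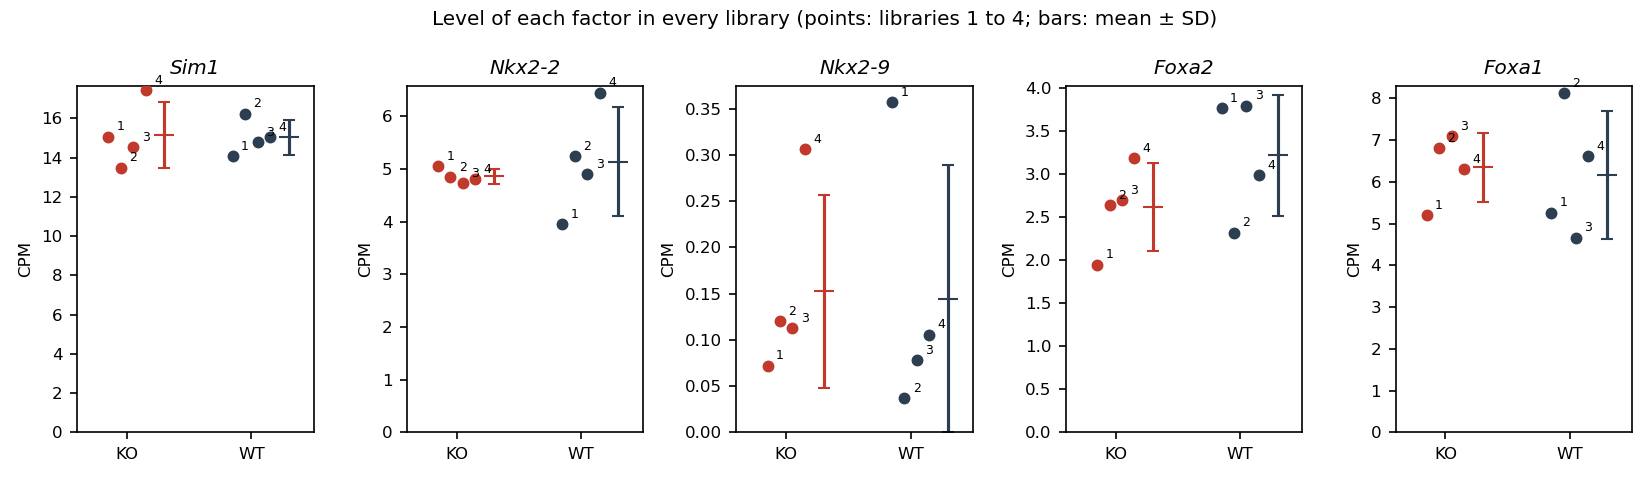
Level in CPM (y axis, starting at 0, a scale for each gene) of the 5 factors in KO and WT libraries (points numbered by replicate) with mean ± SD beside them. The KO and WT points overlap in every panel, and Nkx2-9 stays below 0.36 CPM.

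Levels of different genes were compared per kb of exon (CPM divided by the length of all annotated exons). In KO the order was Foxa1 at 1.91 ± 0.250, Sim1 at 1.76 ± 0.194, Nkx2-2 at 1.69 ± 0.0493, Foxa2 at 1.11 ± 0.215 and Nkx2-9 at 0.121 ± 0.0826 CPM per kb (SD, n = 4). In WT it was Foxa1 at 1.85 ± 0.462, Nkx2-2 at 1.79 ± 0.358, Sim1 at 1.74 ± 0.105, Foxa2 at 1.36 ± 0.298 and Nkx2-9 at 0.114 ± 0.114 CPM per kb (SD, n = 4). The library ranges of Foxa1, Sim1 and Nkx2-2 overlapped in both groups, and in KO the means of Foxa1 and Sim1 lay more than the SD of Nkx2-2 above its mean. Foxa2 lay below those 3 in every KO library, and in WT its range overlapped those of Foxa1 and Nkx2-2 but not that of Sim1. Nkx2-9 was below the other factors in all 8 libraries. Shh had 3.22 ± 0.743 CPM per kb in KO and 3.89 ± 0.546 in WT. Ntn1, the axon guidance gene made by floor plate and ventral progenitors, had 49.3 ± 5.39 in KO and 50.3 ± 1.44 in WT (SD, n = 4 each).

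**Figure D2:**
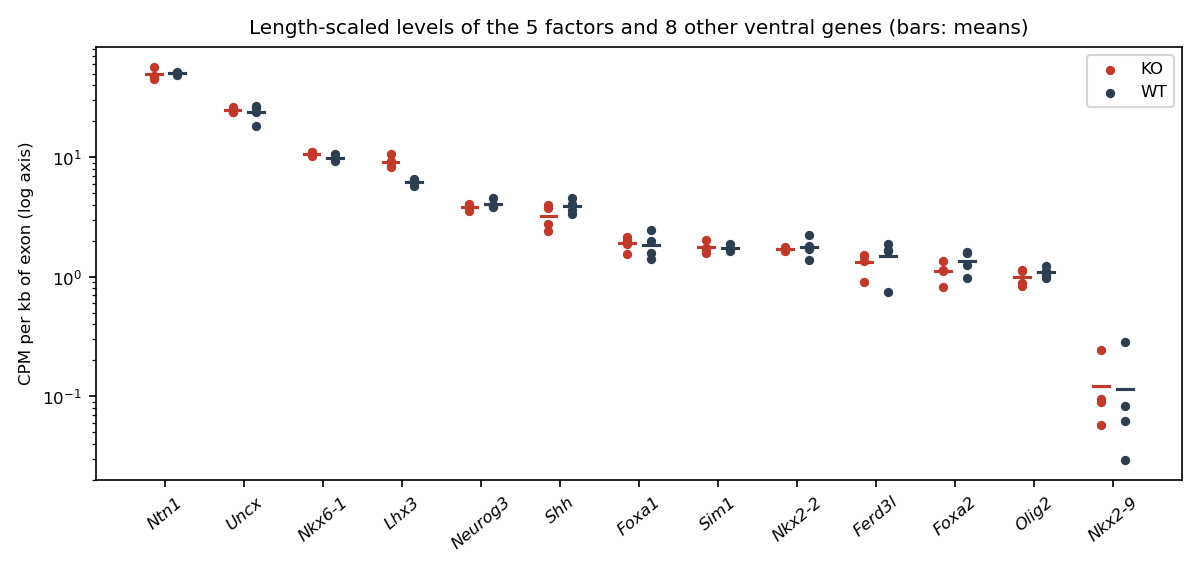
CPM per kb of exon (log y axis) of the 5 factors and 8 other ventral genes, ordered by KO mean, with points for libraries and bars for group means. Foxa1, Sim1 and Nkx2-2 sit side by side just under 2 CPM per kb, Foxa2 lies lower and Nkx2-9 lies about 0.1.

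Other genes used by the same cells were not found to change either. Several genes of the floor plate, p3 and V3 lists are not confined to those cells, Slit2 and Slc17a6 among them. Slit2 averaged 187 CPM in KO, where Foxa2 averaged 2.62 CPM. Such values do not read floor plate, p3 or V3 cells alone. Of 9 floor plate genes (Shh, Spon1, Ntn1, Corin, Ferd3l, Sulf1, Slit1, Slit2 and Slit3) all were tested and 0 rose or fell, with 0 also at an unadjusted p under 0.05. Their median log2 fold change was 0.07, against −0.003 over all genes tested. Shh, the secreted signal itself, had the smallest p of the list. It stood at 6.86, 7.89, 10.6 and 11.2 CPM in KO replicates 1 to 4, against 11.45, 9.45, 10.4 and 13.1 CPM in WT replicates 1 to 4. KO replicates 1 and 2 lay below every WT library and the other KO libraries overlapped them (log2 fold change −0.28, SE 0.16, unadjusted p = 0.107, edgeR adjusted p = 0.855). With limma-voom it was −0.41 (unadjusted p = 0.0267, limma adjusted p = 0.461). Slit3, a secreted axon repellent, was next by p (log2 fold change 0.08, edgeR adjusted p = 0.904).

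Of 7 further p3 and V3 genes (Nkx2-2os, Nkx6-1, Nkx6-2, Olig3, Neurog3, Uncx and Slc17a6), 0 rose or fell, 1 had an unadjusted p under 0.05 (Nkx2-2os, above), and the median log2 fold change was 0.08. Nkx6-1, a homeodomain factor of the p3, motor neuron and p2 domains, averaged 33.6 ± 1.04 CPM in KO and 31.0 ± 1.86 CPM in WT (SD, n = 4 each; log2 fold change 0.11, edgeR adjusted p = 0.822). Uncx, a homeodomain factor found in V3 neurons and in posterior sclerotome, averaged 77.9 ± 3.68 CPM in KO and 74.2 ± 11.7 CPM in WT (SD, n = 4 each). Neurog3, a proneural factor expressed in p3, averaged 6.36 ± 0.405 CPM in KO and 6.84 ± 0.524 CPM in WT (SD, n = 4 each).

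Of 11 receptors, targets and other components of hedgehog signalling, 0 rose or fell, 0 had an unadjusted p under 0.05, and the median log2 fold change was 0.05. Gli1, a transcription factor that is itself switched on by the signal, had 63.3, 68.3, 69.4 and 65.1 CPM in KO replicates 1 to 4. WT replicates 1 to 4 had 49.6, 63.5, 62.6 and 64.6 CPM, with WT replicate 1 below all other libraries (log2 fold change 0.15, SE 0.08, edgeR adjusted p = 0.839). Disp1, which releases Shh from the cells that make it, had a log2 fold change of 0.10 (edgeR adjusted p = 0.843). In DESeq2 and limma-voom fits none of the floor plate, p3, V3 or hedgehog genes passed after adjustment.

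The V2 interneuron genes, whose domain lies dorsal to that of motor neurons, were used as the contrast. The list was chosen with its rise already known, so its values are a description. Of 8 V2 genes tested, 3 rose (Sox14, Gata2 and Lhx3), 0 fell, and the median log2 fold change was 0.57. Without KO replicate 3, WT replicate 2 or WT replicate 4 none of them was called. Without KO replicate 1, 2 or 4 or WT replicate 3 the count was 1, and without WT replicate 1 it was 5. The log2 fold changes of the 3 called genes were 0.56 for Lhx3, 0.58 for Gata2 and 0.82 for Sox14. The V2 genes that did not pass were Vsx1 at 0.91, Foxn4 at 0.74, Gata3 at 0.52, Tal1 at 0.31 and Sox21 at 0.09. The difference between these genes and the 5 factors was not tested over the list. Of 7 tested motor neuron genes, Lhx3, which both lists hold, was the 1 that rose, and 0 fell. Without KO replicate 3, WT replicate 2 or WT replicate 4 it was not called. Isl2, a factor of motor and sensory neurons, averaged 24.1 CPM in KO and 32.4 CPM in WT without passing (edgeR adjusted p = 0.0916), and it was called lower with DESeq2 (adjusted p = 0.00238), limma-voom (adjusted p = 0.00588), without the filter on low counts (edgeR adjusted p = 0.0149) and without WT replicate 1 (edgeR adjusted p = 0.00492).

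**Figure D3:**
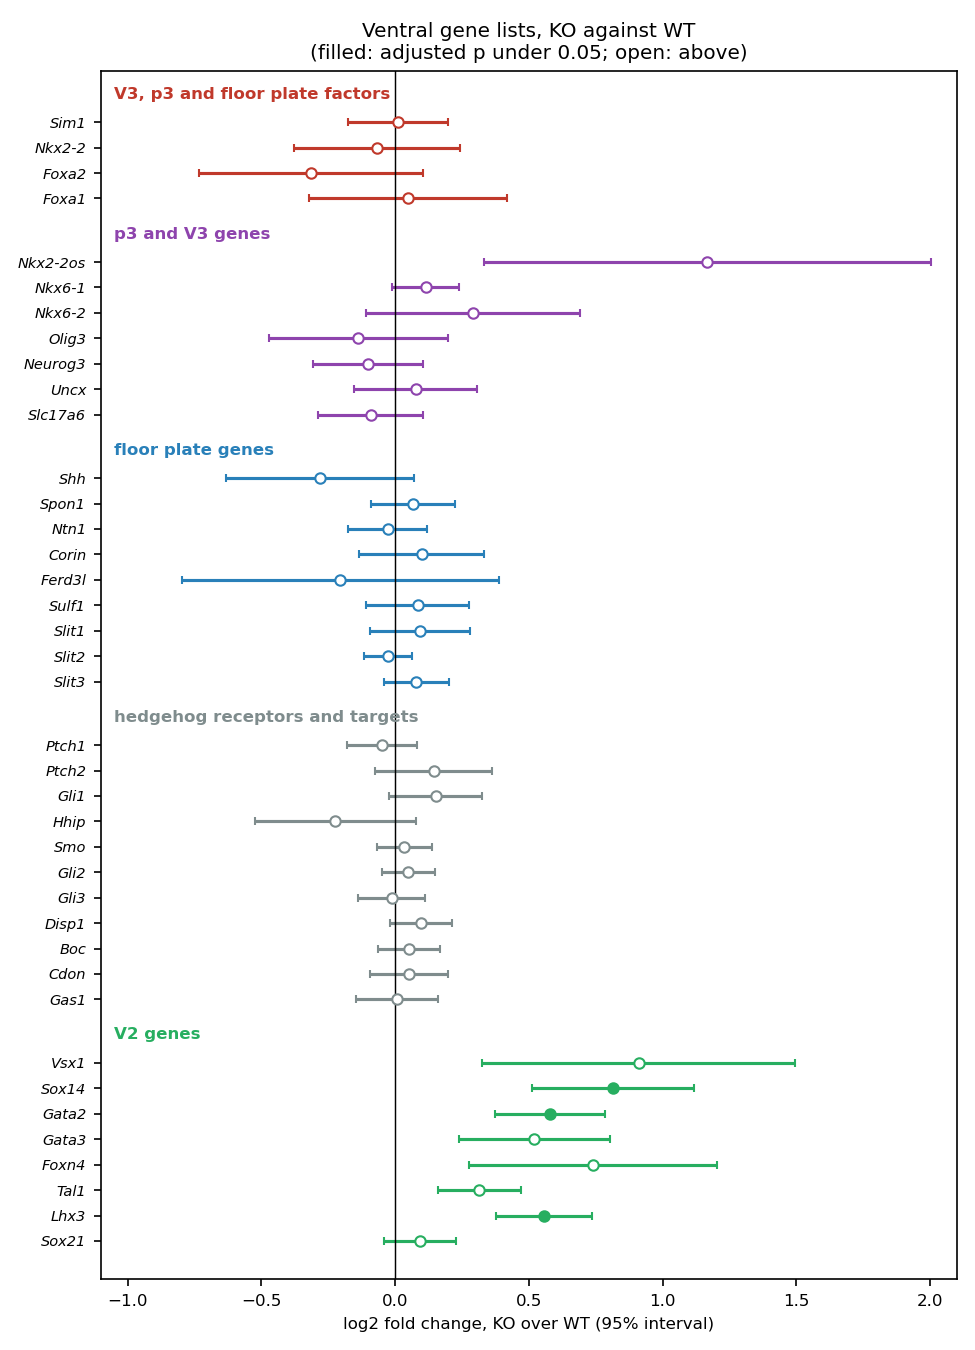
Log2 fold change, KO over WT, with 95% interval for tested genes of 5 lists (filled points passed the adjusted test, open points did not). The 4 tested factors and the p3, V3, floor plate and hedgehog genes have open points mostly near 0, and the V2 genes lie to the right of 0, with Sox14, Gata2 and Lhx3 filled.

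The balance of a V3 and a V2 gene within each library, and that of 5 other pairs, was read from the log2 ratio of their CPM. Sim1 over Lhx3 was −0.78, −0.91, −0.95 and −0.88 in KO replicates 1 to 4. It was −0.40, −0.11, −0.45 and −0.37 in WT replicates 1 to 4. All 4 KO libraries lay below all 4 WT libraries, with a mean difference (KO minus WT) of −0.55 on the log2 scale. Lhx3 was among the called V2 genes, with a log2 fold change of 0.56 against 0.01 for Sim1. The ratio therefore restates the rise of Lhx3 beside an uncalled Sim1 and is given as a description. Its exact permutation p of 0.0286 is the smallest that 4 against 4 libraries can give (adjusted p = 0.171 over the 6 ratios). A single ratio at that smallest p could not pass the adjustment, so the adjusted test could not decide here. The difference lay between −0.58 and −0.47 whichever library was left out.

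The 5 other ratios overlapped between KO and WT. Sim1 over Nkx2-2, a V3 gene against a p3 gene, averaged 1.62 ± 0.161 in KO and 1.56 ± 0.251 in WT on the log2 scale (SD, n = 4 each; exact permutation p = 0.743). Foxa1 over Foxa2 averaged 1.27 ± 0.201 in KO and 0.92 ± 0.677 in WT (SD, n = 4 each; exact permutation p = 0.343). In WT this ratio ran from 0.29 in replicate 3 to 1.78 in replicate 2, a wider spread than the 0.97 to 1.39 of KO. Foxa2 over Nkx2-2, a floor plate gene against a p3 gene, averaged −0.89 ± 0.323 in KO and −0.67 ± 0.538 in WT (SD, n = 4 each; exact permutation p = 0.543). Nkx2-2 over Olig2, a p3 gene against the motor neuron progenitor factor, averaged 0.94 ± 0.203 in KO and 0.87 ± 0.201 in WT (SD, n = 4 each; exact permutation p = 0.629). Nkx2-9 over Nkx2-2 averaged −4.61 ± 0.638 in KO and −4.84 ± 1.09 in WT (SD, n = 4 each; exact permutation p = 0.686), where the prior count of 2 weighs heavily. Adjusted over the 6 ratios, the permutation p of each of these 5 was 0.743.

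**Figure D4:**
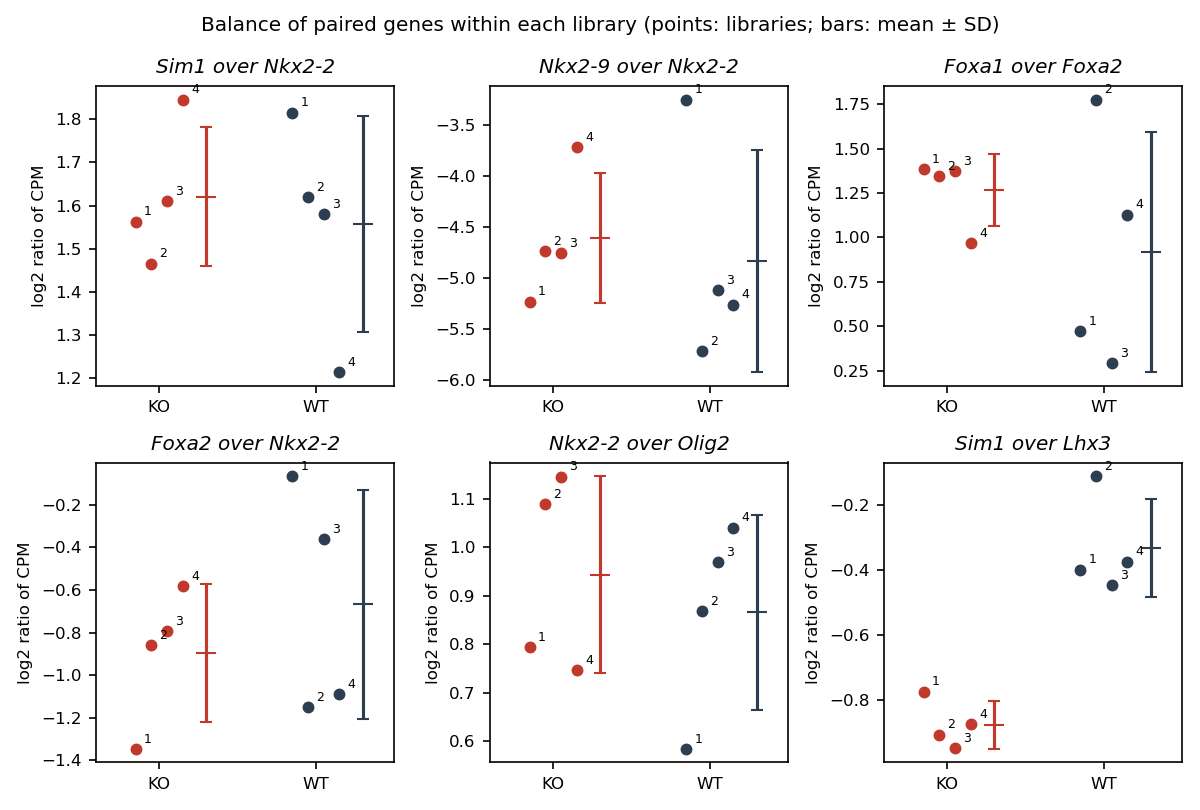
Log2 ratio of CPM (y axis, a scale for each pair) of 6 gene pairs in KO and WT libraries, with points numbered by replicate and mean ± SD beside them. KO and WT separate in the panel of Sim1 over Lhx3, where KO lies between −0.95 and −0.78, and overlap in the other 5.

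The factors did not vary together from library to library in a way that passed a test. Over the 10 pairs of the 5 factors, Pearson's r across the 8 libraries ran from −0.57 to 0.60, and the lowest exact permutation p was 0.121 (adjusted p = 0.734 over the 10 pairs for r, and adjusted p = 0.279 for the lowest Spearman value). Among 64 pairs of a tested factor with a floor plate, p3 or V3 gene, a family added after the data were seen, 6 had an unadjusted exact permutation p under 0.05 for r. None passed the adjustment (lowest adjusted p = 0.444 for Pearson and 0.328 for Spearman). The pair with the smallest p was Foxa2 with Ferd3l, a basic helix-loop-helix factor of the floor plate. Its Pearson r was 0.85 (exact permutation p = 0.00694) and its Spearman rho 0.83 (exact permutation p = 0.0154). Without KO replicate 1 and WT replicate 3, the libraries farthest from the median of Foxa2, r was 0.83. Nkx2-2 with Uncx had r = 0.83 (exact permutation p = 0.0248) and rho = 0.86 (exact permutation p = 0.0107), with r = 0.67 without WT replicates 1 and 4.

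**Figure D5:**
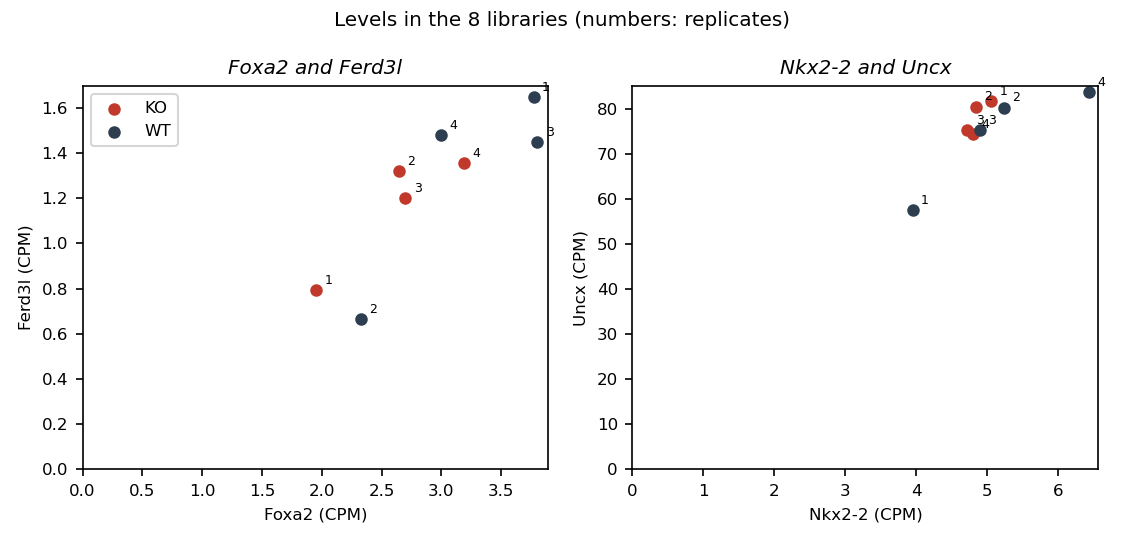
CPM of Ferd3l against Foxa2 (left) and of Uncx against Nkx2-2 (right) in the 8 libraries, coloured by group and numbered by replicate. Ferd3l is lowest in KO replicate 1 and WT replicate 2, which also have the lowest Foxa2, and Uncx is lowest in WT replicate 1, which has the lowest Nkx2-2.

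Among 14284 genes of at least 1 CPM, the profile over the 8 libraries most like that of Sim1 belonged to Rabepk (Pearson r 0.986), Atpaf2 (0.948) and Vars2 (0.940). For Nkx2-2 they included H2afj (0.948) and Fkbp15 (0.945). For Foxa2 they were ENSMUSG00000074873 (0.964), which has no symbol in the annotation used, Dlst (0.935) and Cmtm6 (0.934). For Foxa1 they were Cox4i2 (0.963), Acp1 (0.949) and Glrx2 (0.936), and for the near-absent Nkx2-9 they were Zkscan5 (0.973), Rps15a (0.972) and Prrg4 (0.961). Each is among the highest of 14284 values over 8 points and is given as a description. Between 6 and 50 genes exceeded r = 0.9 for each factor.

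The factors have other known sources near the cord, so markers of those tissues were read in the same libraries. Noto, a notochord factor, and Nkx2-1, a factor of foregut and forebrain, had 0 counts in all 8 libraries, which allows up to 0.131 CPM in the shallowest. Brachyury (T), the defining factor of notochord, had 1.88 to 3.76 CPM in KO and 2.95 to 3.76 CPM in WT. The 4 notochord markers summed to 10.2 to 16.7 CPM in KO and 13.4 to 18.5 CPM in WT, and 0 of the 3 tested passed. Shh, a floor plate gene too, made up most of that sum, so the sum does not read notochord apart from floor plate. The 8 endoderm markers summed to 20.3 to 32.4 CPM in KO and 22.3 to 34.2 CPM in WT, and 0 of the 4 tested passed. Nearly all of that sum came from the tested Sox17, Epcam, Hhex and Cdh1, which are not confined to endoderm. Nkx2-1, Cdx2, Afp and Ttr were near or at the floor, with Ttr the highest at 0.450 CPM in KO replicate 3. The sum therefore does not read endoderm alone. The 4 mesonephros markers summed to 85.9 to 113 CPM in KO and 91.2 to 129 CPM in WT, and 0 of 4 passed. Among them Pax2 averaged 40.8 CPM in KO and 53.9 CPM in WT, and Pax8 averaged 16.1 and 23.4 CPM. Spinal interneurons also use both genes, so this sum does not read mesonephros apart from spinal cord. Sim1 is also known from somites and Uncx from sclerotome. The 8 dermomyotome and muscle markers summed to 376 to 441 CPM in KO and 342 to 365 CPM in WT, without overlap, with 0 of 8 passing. The 7 sclerotome markers summed to 618 to 639 CPM in KO and 528 to 623 CPM in WT, with 0 of 7 passing. With a score of both lists as a covariate the log2 fold change was −0.22 for Sim1, −0.32 for Nkx2-2, −0.37 for Foxa1 and −0.12 for Foxa2, and 0 of the 4 passed (edgeR adjusted p at least 0.981). The score, a mean log2 CPM, was 5.58 to 5.68 in KO and 5.41 to 5.56 in WT, without overlap. In this fit the content of these tissues and genotype therefore cannot be told apart. The part of other tissues in the levels of the 5 factors was not tested further. The labelled tissues were represented, with all 10 spinal cord and all 8 dorsal root ganglion markers detected.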

How the data were processed

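The labels' protocols give column extraction of total RNA and standard Illumina library preparation. The values deposited by the authors are raw read counts per Ensembl gene. The submitters' processing notes name the aligner STAR (2.3.0e), the counter featureCounts (1.4.6-p1), DESeq2 (1.8.2) and the build mm10. Annotation release and strand setting: not given in the sources used here.

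Per file, 38355 genes were used and 5 summary rows (0 counts) left out. Symbols, coordinates and exon lengths came from GENCODE M21 (GRCm38, the assembly of mm10), matching 36602 identifiers. No same-group libraries agreed within sampling noise (chi-square per degree of freedom at least 4.63), so all 8 were counted as replicates.

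KO was compared with WT in edgeR 4.0.16 (R 4.3.3): filterByExpr, TMM (factors 0.991 to 1.01), robust quasi-likelihood F test, group alone, Benjamini-Hochberg over 16068 genes, threshold 0.05. SE was |log2 fold change|/√F. Ratios and correlations used log2 CPM with a prior count of 2 and two-sided exact permutation tests. Intervals cover 95%. The fit was tested on simulated counts.

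The 5 genes, the lists and the tests were chosen with earlier results of these data known. Genes named were the 5 factors, every called gene and the 2 smallest p of each list, the 3 most similar profiles, and genes at the same locus. Uncx, Neurog3, Ntn1, Ferd3l and Olig2 were named after their values were seen or as partners in a ratio. The uncalled V2 genes were named to complete their list. Slc18a3 of the motor neuron list was not analysed here, and some genes that the lists held or the rule named are not reported here, with the lists counted without them. Alternatives were DESeq2 1.42.0, limma-voom (limma 3.58.1), other scaling and filtering, covariates, and leaving out each library.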

Additional observations from a re-analysis of the deposited data

Results flagged for a closer look

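Among 42 groups of 4 libraries examined for a library far from the other 3, 3 had one, where chance gives about 1 in 20. In KO replicate 4 the log2 ratio of Foxa1 over Foxa2 was 0.97, against 1.34 to 1.39 in the other KO libraries. In WT replicate 1 Gli1 was at 49.6 CPM, below the 62.6 to 64.6 CPM of WT replicates 2 to 4. In KO replicate 3 Slit3 was at 66.96 CPM, below the 75.6 to 77.1 CPM of the remaining KO libraries.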

How the results depend on the processing

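None of the 5 factors and none of the floor plate, p3, V3 or hedgehog genes was called in any of 15 other settings. Nkx2-9 could be tested only in the setting with no filter on low counts. Over all genes, 9 rose and 39 fell in the fit reported, against 22 and 81 with DESeq2 and 23 and 102 with limma-voom. With a replicate block 2 rose and 14 fell. With the covariate for muscle and mesenchyme genes (the score below) 0 rose and 3 fell. That score did not overlap between KO and WT, so its fit cannot tell tissue content from genotype. Leaving out each library gave 3 to 21 rising and 12 to 112 falling genes. The log2 fold change of Sim1 was −0.017 with limma-voom, −0.22 with the score and −0.060 to 0.062 without each library. That of Foxa1 was −0.37 with the score and −0.059 to 0.20 without each library, and that of Nkx2-2 was −0.18 to 0.061. That of Foxa2 was −0.44 with limma-voom, −0.12 with the score and −0.44 (without WT replicate 2) to −0.19 (without KO replicate 1) without each library, and that of Shh −0.39 to −0.16. With the score, Slit3 was at −0.019, Nkx6-1 at −0.011 and Gli1 at −0.065. Without each library the KO minus WT difference ran from −0.051 to 0.15 for Sim1 over Nkx2-2, from 0.14 to 0.64 for Foxa1 over Foxa2, from −0.39 to −0.028 for Foxa2 over Nkx2-2, from −0.071 to 0.76 for Nkx2-9 over Nkx2-2 and from −0.016 to 0.14 for Nkx2-2 over Olig2. The causes were not tested. V2 calls numbered 5 with DESeq2, 6 with limma-voom, 1 with the replicate block and 0 with the score. Same-numbered libraries did not clearly deviate together (r of deviations −0.19 to 0.28), which gave no sign of pairing by replicate number. With so few libraries this does not exclude a weak pairing. The block moved the counts over all genes as given above. In the block fit Sim1 and Foxa2 had edgeR adjusted p of at least 0.867. A WT replicate 1 thinned to 26532920 counts, chosen after seeing the data, called 0 of the factors. Depth limits the low genes Nkx2-9 and Nkx2-2os.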
